A study of Arabidopsis thaliana with 30 samples.

Results

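Cytokinin perception in the inflorescence stem was followed through 10 genes, chosen by their gene identifiers from the 37051 genes of the nuclear RNA-seq tables, and all 10 were present. They were the histidine kinase receptor genes AHK2 (AT5G35750), AHK3 (AT1G27320) and AHK4 (AT2G01830), the inhibitor gene AHP6 (AT1G80100), and the type-A response regulator genes ARR3 (AT1G59940), ARR4 (AT1G10470), ARR5 (AT3G48100), ARR6 (AT5G62920), ARR7 (AT1G19050) and ARR15 (AT1G74890). Nuclei came from the stems of Arabidopsis Col-0 plants (second internode, counted from the base) that were grown in short days and then moved to long days to flower, and they were sorted by the fluorescence of a histone H4-GFP fusion, whose gene all plants carried behind a tissue-specific promoter. GFP-positive nuclei came from 7 lines: NST3pro:H4-GFP (fibers), VND7pro:H4-GFP (differentiating vessel elements), PXYpro:H4-GFP (proximal cambium and differentiating xylem), SMXL5pro:H4-GFP (distal cambium and differentiating phloem), APLpro:H4-GFP (differentiated phloem), SCRpro:H4-GFP (starch sheath) and LTP1pro:H4-GFP (epidermis), with 3 libraries each. GFP-negative nuclei, which hold all unlabeled tissues together, were sequenced for the NST3pro, SMXL5pro and APLpro lines, again with 3 libraries each. Each group is therefore what 1 promoter labels, not an anatomically dissected tissue, and the PXYpro and SMXL5pro groups each span cambium and differentiating vascular cells.

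Cytokinins are adenine-derived hormones that promote cell division in the cambium and influence which vascular cell types form. The AHK receptors autophosphorylate upon cytokinin binding and pass the phosphoryl group through AHP phosphotransfer proteins to type-B response regulators in the nucleus, which activate transcription. The type-A response regulator genes are primary targets of this output and their proteins dampen the pathway, while AHP6 lacks the conserved histidine and acts as an inhibitor, known from protoxylem formation in the root.

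Because type-B regulators are known to bind short sites with a GAT core, the 250 bases upstream of the annotated gene start were read for all members from the TAIR10.1 assembly, whose annotation (RefSeq) gave the coordinates. The windows of ARR4, ARR5 and ARR7 are shown, the type-A genes with a difference among tissues in the results that follow. They lie on the minus strand at chr1:3444361-3444610, chr3:17760951-17761200 and chr1:6579315-6579564 and are written 5′ to 3′ toward the gene, with AGATT and AGATC, or their reverse complements, in capitals.
ARR4: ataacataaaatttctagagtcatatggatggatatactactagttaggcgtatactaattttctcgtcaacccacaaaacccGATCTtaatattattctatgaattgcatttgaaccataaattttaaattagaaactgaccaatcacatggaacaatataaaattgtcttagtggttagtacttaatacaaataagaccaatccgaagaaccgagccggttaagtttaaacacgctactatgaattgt
ARR5: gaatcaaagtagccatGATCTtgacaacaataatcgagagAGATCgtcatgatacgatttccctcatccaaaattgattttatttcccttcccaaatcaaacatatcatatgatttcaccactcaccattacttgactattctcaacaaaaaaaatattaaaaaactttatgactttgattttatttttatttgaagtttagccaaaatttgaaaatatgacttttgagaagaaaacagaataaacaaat
ARR7: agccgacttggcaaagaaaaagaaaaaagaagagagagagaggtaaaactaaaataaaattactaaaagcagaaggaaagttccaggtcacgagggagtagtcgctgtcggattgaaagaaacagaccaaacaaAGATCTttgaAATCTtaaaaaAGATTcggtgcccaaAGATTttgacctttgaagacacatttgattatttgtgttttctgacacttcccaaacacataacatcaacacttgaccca
ARR7 held 5 matches, of which 2 overlapped each other, between 116 and 80 bases upstream of its start. ARR5 held 2 matches, ARR4 held 1, and of the other members AHK4 and ARR6 held 3 each, ARR3 and ARR15 held 1 each, and AHK2, AHK3 and AHP6 held none. At least 1 match on either strand was present in 7 of the 10 members and in 73.2% of the windows of all 27443 protein-coding genes, and at least 5 matches in 2.5% of them. A match describes letters in the sequence and not a bound site.

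The 30 libraries held between 725545 and 18335693 reads assigned to genes, from 15000 sorted nuclei each (10800 for 1 LTP1pro library), and the labels do not say whether replicates came from separate plants, so that p-values measure the spread between these samples, which may be technical. Of the 19 marker genes that the study assigned to the labeled tissues, 18 had their highest mean in the assigned tissue. The exception was LTP1 itself, which averaged 25.9 normalized read counts in LTP1pro-positive and 67.7 in VND7pro-positive nuclei. The list includes the promoter genes, and the study kept the libraries used here partly by their match to known expression profiles. The marker count is therefore no independent check. The tissues were compared on 17 of the 21 GFP-positive libraries, following the study. It set aside replicate 2 of NST3pro, replicate 6 of VND7pro, replicate 15 of APLpro and replicate 19 of LTP1pro. The study chose these libraries by principal component and correlation analysis and by known expression profiles, thus from the data tested here. It cautioned that statistics give little support for calling 1 replicate of a group an outlier. The variation between replicates (biological coefficient of variation) was 0.54 with the 17 and 0.63 with all 21 libraries. Adjusted p from the 17 libraries may therefore be too small, also in fits without 1 library. Reads were found for 34057 to 34338 genes in each SMXL5pro and APLpro library and for 33127 and 33488 in the LTP1pro libraries, against 27539 to 31814 in the NST3pro, VND7pro, PXYpro and SCRpro libraries. Normalized read counts are CPM, the reads of a gene relative to the scaled total of its library, and since nuclei were pooled, fewer nuclei transcribing a gene and less RNA per nucleus cannot be told apart.

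Of the 10 members, 5 differed among the 7 tissues in the joint test at an adjusted p of 0.01, namely the receptors AHK2 and AHK3 and the type-A regulators ARR4, ARR5 and ARR7, beside 26.1% of all 32659 genes tested. AHK4 (adjusted p = 0.0314), AHP6 (0.80), ARR3 (0.262), ARR6 (0.218) and ARR15 (0.262) did not pass. All 10 members had passed the filter on low counts. When only the 13826 genes with an average log2 CPM of at least 4 were fitted, a setting chosen after seeing the data, 54.7% of them passed, as did 4 of the 7 members among them, AHK3 being lost. By mean level, 5 of the 10 members were highest in VND7pro-positive nuclei, 3 in NST3pro, and 1 each in PXYpro and SMXL5pro, and none was highest in APLpro, SCRpro or LTP1pro nuclei. LTP1pro-positive nuclei had the lowest mean for 5 members. Of all genes tested, 17.6% were highest in VND7pro, 14.4% in NST3pro, 8.88% in PXYpro, 13.5% in SMXL5pro, 14.7% in APLpro, 9.22% in SCRpro and 21.8% in LTP1pro nuclei, and 11.8% were lowest in LTP1pro nuclei.

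**Figure D1:**
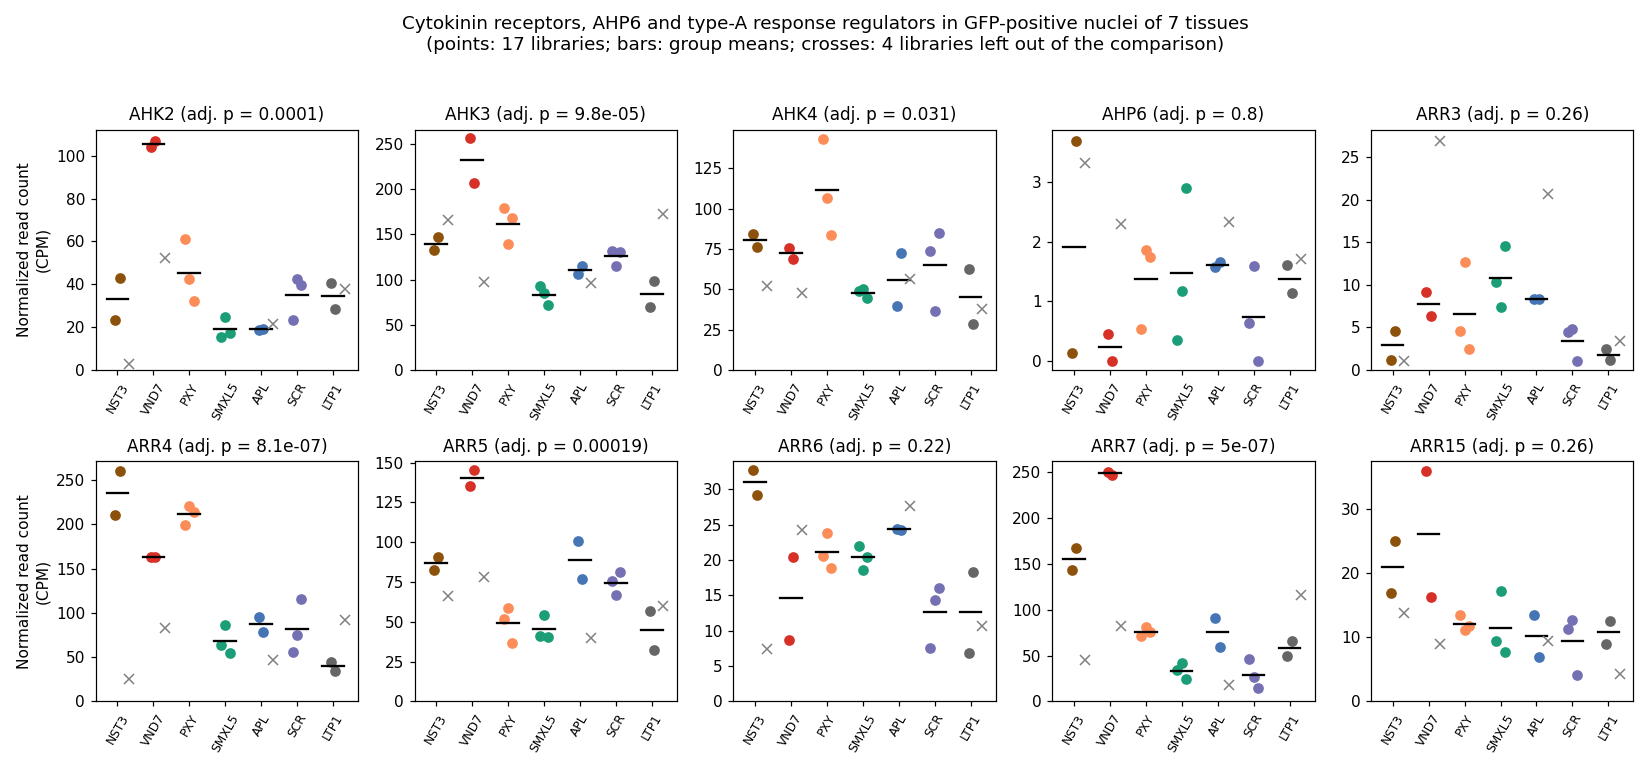
Normalized read count (CPM, linear axis) of each member in GFP-positive nuclei of the 7 lines; points are the 17 libraries compared, bars are group means, crosses are the 4 libraries that were set aside, and the adjusted p of the joint test stands above each panel. The 2 VND7pro points of AHK2, at 104 and 107, and of ARR7, at 251 and 247, lie above every other compared library of the gene, while the cross of VND7pro lies lower in both.

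AHK2, a receptor, was highest in vessel nuclei. Its normalized read counts were 104 and 107 in the 2 VND7pro libraries, 61.0, 42.5 and 32 in the PXYpro libraries and 23.2 and 43.2 in the NST3pro libraries. They were 15.7, 24.6 and 17.3 in the SMXL5pro libraries, 18.7 and 19.3 in APLpro, 23.3, 42.5 and 39.7 in SCRpro, and 40.4 and 28.3 in LTP1pro. Both vessel libraries thus exceeded all 15 others, and the SMXL5pro and APLpro libraries were at the low end, where SMXL5pro overlapped NST3pro and SCRpro. The mean was 106 ± 2.10 (SD, n = 2) in VND7pro and 19 ± 0.466 (SD, n = 2) in APLpro, a ratio of 5.56, with an adjusted p of 0.000101 over the 7 tissues.

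AHK3, the receptor with the most reads per length here, followed a similar order with a smaller range. It was read at 257 and 207 in VND7pro, 179, 139 and 168 in PXYpro, 133 and 147 in NST3pro, and 132, 115 and 131 in SCRpro nuclei. The counts were 106 and 115 in APLpro, 93.0, 84.8 and 71.4 in SMXL5pro, and 70.0 and 98.5 in LTP1pro nuclei. No SMXL5pro or LTP1pro library reached a library of the VND7pro, PXYpro, NST3pro or SCRpro groups. The means spanned from 232 ± 34.8 (SD, n = 2) in VND7pro to 83.1 ± 10.9 (SD, n = 3) in SMXL5pro, a ratio of 2.79 (adjusted p = 9.77e-05).

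AHK4, also named CRE1 or WOL and best known from the root vascular cylinder, had its highest mean in PXYpro-positive nuclei. It was read at 143, 107 and 83.7 there, 84.2 and 76.3 in NST3pro and 75.8 and 68.7 in VND7pro nuclei. The remaining libraries ranged from 28.6 (LTP1pro) to 85.2 (SCRpro). The PXYpro libraries overlapped those of NST3pro and SCRpro, the joint test did not pass (adjusted p = 0.0314), and only the difference between PXYpro and SMXL5pro nuclei, where the counts were 48.9, 50.3 and 44.4, passed among the pairs (log2 fold change 1.22 ± 0.32 SE, adjusted p = 0.00718). That call was lost without replicate 7 or 8 of PXYpro or any 1 of the 3 SMXL5pro libraries, with adjusted p up to 0.0449.

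AHP6, the pseudo-phosphotransfer inhibitor, had few reads in all tissues. Its reads per library numbered from 0 to 44, and its group means ran from 0.228 normalized counts in VND7pro, where the libraries held 2 and 0 reads, to 1.91 in NST3pro, where they held 1 and 44. All 7 groups overlapped with their neighbor in the order of means. No difference was detectable at this depth (joint adjusted p = 0.80), and in 4 of the 17 libraries it lay under 3 reads without being absent while 2 libraries had none.

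ARR4, a type-A regulator, was high on the xylem side. It was read at 210 and 260 in NST3pro, 200, 221 and 214 in PXYpro, and 163 and 163 in VND7pro nuclei. The counts were 95.5 and 78.9 in APLpro, 55.5, 75.4 and 116 in SCRpro, 63.7, 86.6 and 55.2 in SMXL5pro, and 44.5 and 34.9 in LTP1pro nuclei. All 7 libraries of the first 3 groups were above all 10 of the other 4 groups, with no overlap. The mean was 235 ± 35.0 (SD, n = 2) in NST3pro and 39.7 ± 6.76 (SD, n = 2) in LTP1pro, a ratio of 5.92 (joint adjusted p = 8.14e-07).

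ARR7, a type-A regulator known as a cytokinin-induced gene in the shoot apex, had the widest range among the members that passed. Its counts were 251 and 247 in VND7pro, 143 and 167 in NST3pro, 71.4, 81.0 and 75.8 in PXYpro, and 91.4 and 59.6 in APLpro nuclei. They were 49.7 and 66.1 in LTP1pro, 34.9, 41.5 and 24.2 in SMXL5pro, and 46.6, 26.5 and 15.0 in SCRpro nuclei. The vessel libraries were above the fiber libraries and these above all others. The mean was 249 ± 2.29 (SD, n = 2) in VND7pro and 29.4 ± 16.0 (SD, n = 3) in SCRpro, a ratio of 8.47 (joint adjusted p = 4.99e-07).

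ARR5, a type-A regulator widely used as a cytokinin reporter gene, was also highest in vessel nuclei. It was read at 135 and 145 in VND7pro, 101 and 77.2 in APLpro, 82.9 and 90.8 in NST3pro, and 75.6, 66.9 and 81.1 in SCRpro nuclei. The counts were 51.7, 58.9 and 36.8 in PXYpro, 41.1, 54.4 and 40.3 in SMXL5pro, and 57.0 and 32.6 in LTP1pro nuclei. All libraries of the first 4 groups exceeded all libraries of the last 3. The mean was 140 ± 7.13 (SD, n = 2) in VND7pro and 44.8 ± 17.2 (SD, n = 2) in LTP1pro, a ratio of 3.13 (joint adjusted p = 0.000186).

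The other type-A regulators had fewer reads and no difference that passed. ARR15, a close relative of ARR7, had its highest mean in VND7pro nuclei (26.0 ± 13.9 SD, n = 2, from libraries at 35.8 and 16.2) and its lowest in SCRpro nuclei (9.40 ± 4.64 SD, n = 3). ARR6 was read at 32.7 and 29.2 in NST3pro nuclei, above all 15 other libraries, which lay between 6.87 and 24.4. ARR3 had its highest mean in SMXL5pro nuclei (10.8 ± 3.60 SD, n = 3) and its lowest in LTP1pro nuclei (1.79 ± 0.906 SD, n = 2), where the libraries held 6 and 4 reads. ARR6 overlaps the neighboring gene AT5G62910 on the opposite strand over 348 bases, and since reads were counted without strand and those touching both genes were dropped, the level of ARR6 is uncertain. The other 9 members overlap no annotated gene.

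When each tissue was set against the mean of the other 6, VND7pro nuclei had the most members that were higher. They were AHK2 (log2 fold change 1.84 ± 0.25 SE, adjusted p = 1.36e-05), AHK3 (1.02 ± 0.17, 8.39e-05), ARR5 (1.18 ± 0.20, 0.000181) and ARR7 (2.04 ± 0.23, 8.04e-07), 4 of 10 beside 10.3% of all genes. That share of all genes was also the largest share of higher genes in any of the 7 tissues. In fiber nuclei ARR4 (1.33 ± 0.20) and ARR7 (1.24 ± 0.24) were higher, 2 of 10 beside 8.76%, and in PXYpro nuclei ARR4 alone was higher (1.15 ± 0.17), 1 of 10 beside 7.38%. In SMXL5pro nuclei AHK2 (-1.03 ± 0.27), AHK3 (-0.71 ± 0.16), ARR4 (-0.75 ± 0.20) and ARR7 (-1.34 ± 0.25) were lower, 4 of 10 beside 11.4%. ARR7 was lower in SCRpro nuclei (-1.60 ± 0.27), 1 of 10 beside 1.59%, and ARR4 in LTP1pro nuclei (-1.67 ± 0.26), 1 of 10 beside 6.12%. None of the 10 passed for APLpro nuclei in edgeR, DESeq2 or limma, beside 3.96% of all genes in either direction, and 1 had an unadjusted p under 0.05 in edgeR, AHK2 (-1.05 ± 0.32, adjusted p = 0.0439).

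The SMXL5pro calls of AHK2, AHK3 and ARR4 were lost with DESeq2 size factors, which moved the median of all genes by 0.22 there and the share of passing genes that were higher from 15.8% to 27.8%. In LTP1pro nuclei the same scaling moved the median by 0.19 and that share from 33.7% to 47.4%, and ARR4 still passed. Several calls also rested on single libraries. AHK2 in SMXL5pro nuclei kept its call only without replicate 1 of NST3pro, 7, 8 or 9 of PXYpro, 16 of SCRpro or 21 of LTP1pro, and had adjusted p up to 0.0706 without any other library. ARR4 in SMXL5pro nuclei kept its call only without replicate 1 of NST3pro, 11 of SMXL5pro, 14 of APLpro, 16 or 18 of SCRpro or 21 of LTP1pro, with adjusted p up to 0.0858. AHK3 missed the threshold in SMXL5pro nuclei without replicate 11 or 12 of SMXL5pro (adjusted p up to 0.0349) and in VND7pro nuclei without replicate 4 of VND7pro (0.0227), ARR7 in NST3pro nuclei without replicate 3 of NST3pro (0.0311), and ARR4 in LTP1pro nuclei without replicate 21 of LTP1pro (0.0129). The calls of AHK2, ARR5 and ARR7 in VND7pro, ARR4 in NST3pro and PXYpro, and ARR7 in SMXL5pro and SCRpro nuclei passed in all 17 fits that left out 1 library.

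**Figure D2:**
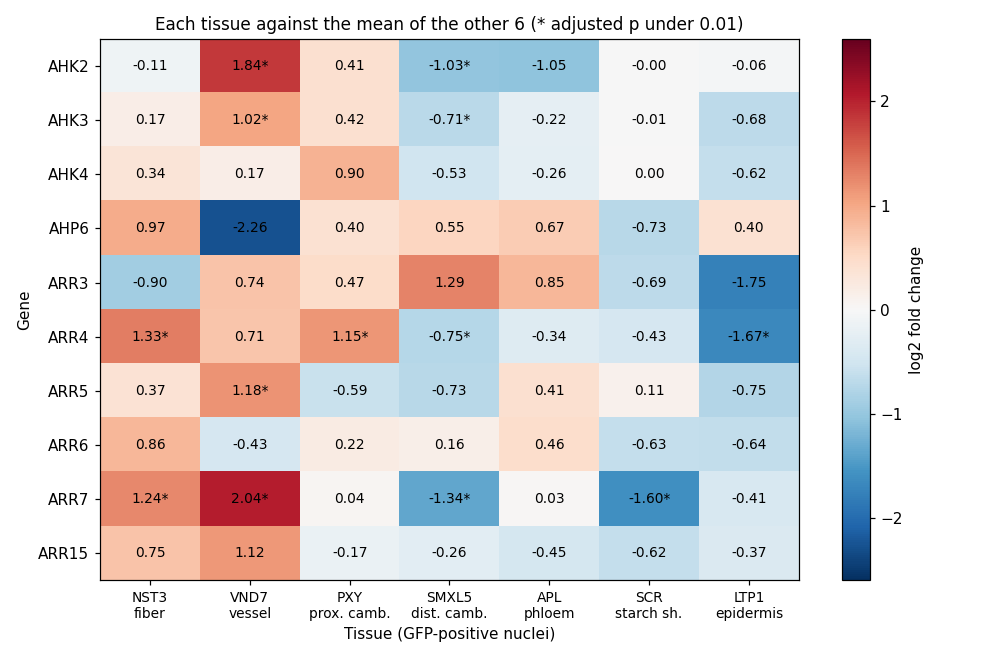
Fitted log2 fold change of each member (rows) in each tissue against the mean of the other 6 (columns), printed in every cell and colored from blue (lower) to red (higher); an asterisk marks an adjusted p under 0.01. The 13 asterisks include 4 in the VND7 column, all red, and 4 in the SMXL5 column, all blue; the value of AHP6 in VND7pro nuclei is large but rests on 2 and 0 reads.

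The members were next compared between groups of tissues. On the xylem side (NST3pro, VND7pro and PXYpro) against the phloem side (SMXL5pro and APLpro), AHK2 (log2 fold change 1.5 ± 0.24 SE, adjusted p = 5.44e-05), AHK3 (0.86 ± 0.14, 8.47e-05), ARR4 (1.38 ± 0.18, 4.20e-06) and ARR7 (1.51 ± 0.22, 1.72e-05) were higher, 4 of 10 beside 17% of all genes, and none was lower. Values without a call were 0.74 ± 0.23 for AHK4 (adjusted p = 0.0152), 0.79 ± 0.41 for ARR15, 0.41 ± 0.18 for ARR5, -0.08 ± 0.32 for ARR6, -0.83 ± 0.60 for ARR3 and -0.78 ± 0.90 for AHP6. The median was 0.77 over the 10 members and -0.45 over all genes. The 4 calls passed in all 17 fits without 1 library.

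This contrast depended on scaling more than the others, and its sides also differed in the number of genes with reads given before, whose part in the result was not tested. With DESeq2 size factors the median of all genes moved by -0.27 and the share of passing genes that were higher on the xylem side fell from 61.3% to 45%, while AHK2 (1.23), AHK3 (0.59), ARR4 (1.11) and ARR7 (1.25) still passed. When only genes with an average log2 CPM of at least 4 were fitted, the median of all genes was 0.04, AHK2 (0.94), ARR4 (0.82) and ARR7 (0.96) passed, AHK3 did not, and the value of ARR5 became -0.15.

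In the cambium-labeled groups (PXYpro and SMXL5pro) against the other 5, no member was higher, and ARR5 (-0.79 ± 0.15 SE, adjusted p = 0.00169) and ARR7 (-0.78 ± 0.19, 0.00962) were lower, 2 of 10 beside 4.05% of all genes. The median was 0.02 over the members and 0.11 over all genes. ARR7 passed only when the library left out was replicate 1 of NST3pro, 11 of SMXL5pro, 14 of APLpro or 16 or 18 of SCRpro, with adjusted p up to 0.0426 otherwise, whereas ARR5 passed in all 17 such fits. In the outer groups (SCRpro and LTP1pro) against the 5 vascular groups, ARR4 (-1.26 ± 0.17, 2.09e-05) and ARR7 (-1.21 ± 0.21, 0.000355) were lower, 2 of 10 beside 5.07%, and no member was higher. The median was -0.50 over the members and 0.07 over all genes, DESeq2 size factors moved the latter by 0.13 and the share of passing genes that were higher from 48% to 61.9%, and both members still passed (-1.12 and -1.07).

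**Figure D3:**
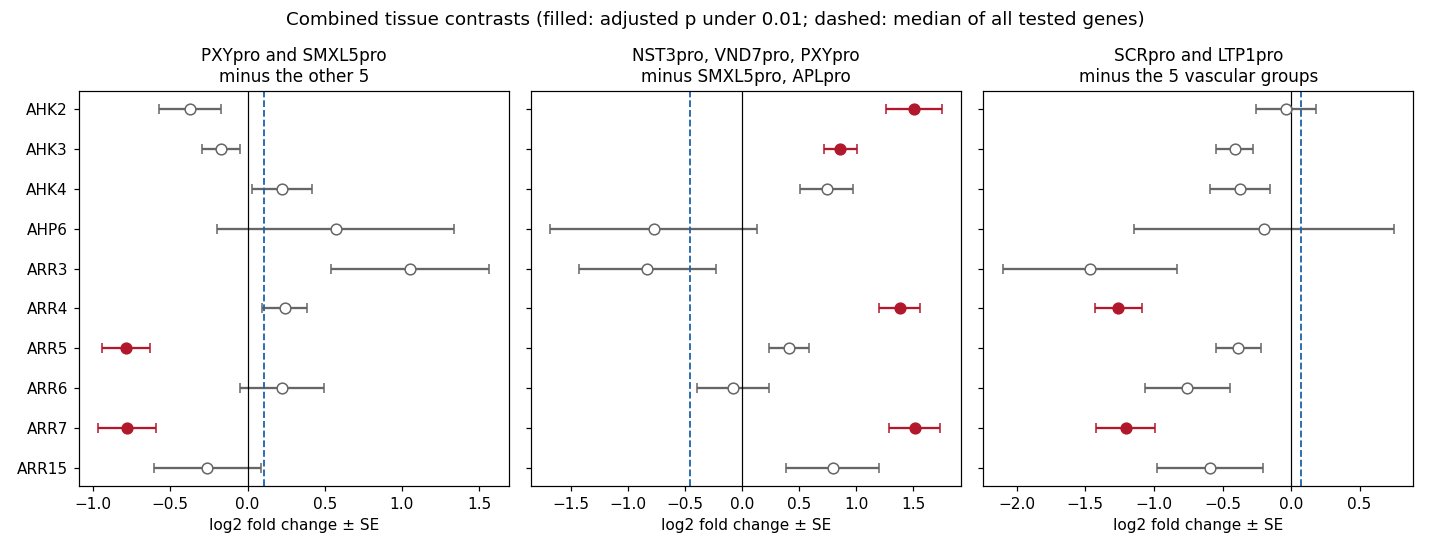
Fitted log2 fold change ± SE of the 10 members in 3 combined contrasts, with filled red points for an adjusted p under 0.01, open points otherwise, a solid line at no difference and a dashed line at the median of all 32659 genes. AHK2, AHK3, ARR4 and ARR7 lie between 0.86 and 1.51 in the middle panel, to the right of the dashed line at -0.45, and ARR5 and ARR7 lie at -0.79 and -0.78 in the left panel.

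Between pairs of tissues, a member passed (adjusted p under 0.01 and log2 fold change beyond 1 in either direction) in 34 of 210 tests, beside 9.01% of such tests over all genes. VND7pro nuclei were the higher group in 18 of these calls, PXYpro in 8, NST3pro in 7 and APLpro in 1, and SMXL5pro was the lower group in 11, LTP1pro in 8, SCRpro in 7, APLpro in 5, PXYpro in 2 and NST3pro in 1. The calls over all genes were also uneven, with VND7pro the higher group in 24.7%, NST3pro in 20.3% and PXYpro in 18.7% of them. SCRpro was the higher group in 16.9%, LTP1pro in 7.84%, APLpro in 6.37% and SMXL5pro in 5.17%. Of these, only APLpro was the higher group in a call of a member. SMXL5pro was the lower group in 29.6%, LTP1pro in 20%, APLpro in 14.8%, NST3pro in 12.2%, SCRpro in 8.44%, VND7pro in 7.73% and PXYpro in 7.22%. ARR7 carried 11 calls, ARR4 10, AHK2 6, AHK3 and ARR5 3 each and AHK4 1. Of the 34 calls, 9 were lost with DESeq2 size factors, 5 in the DESeq2 test and 4 with limma sample quality weights. When only genes with an average log2 CPM of at least 4 were fitted, 12 were lost. Among the calls, the largest difference was that of ARR7 between VND7pro and SCRpro nuclei (3.12 ± 0.34, adjusted p = 1.14e-06), followed by that of ARR7 between VND7pro and SMXL5pro nuclei (2.90 ± 0.33) and that of ARR4 between NST3pro and LTP1pro nuclei (2.57 ± 0.31). The only call with APLpro as the higher group, ARR7 against SCRpro nuclei (1.40 ± 0.33), was lost in 12 of the 17 fits without 1 library. The calls of AHK2 between NST3pro and VND7pro and between PXYpro and SMXL5pro nuclei were lost in 7 each. Neighbors in the order of mean levels never passed for any member. The nearest to passing were AHK2 between VND7pro and PXYpro (adjusted p = 0.0221), ARR4 between VND7pro and APLpro (0.0377) and ARR7 between NST3pro and PXYpro (0.0462), all without overlap of the libraries.

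Divided by gene length, which counts introns as the read counting did, the members ordered as ARR7 (65.2 normalized counts per kilobase averaged over the 7 tissues), ARR4 (53.4), ARR5 (29.998), AHK3 (23.3), AHK4 (10.2), ARR15 (9.13), ARR6 (8.44), AHK2 (7.55), ARR3 (3.67) and AHP6 (1.02). AHK3 was thus the most abundant receptor per length. In VND7pro nuclei ARR7 reached 168 ± 1.55 per kilobase (SD, n = 2) and ARR4 68.7 ± 0.25, while in PXYpro nuclei the order was reversed, with 51.3 ± 3.25 for ARR7 and 89.1 ± 4.59 for ARR4 (SD, n = 3).

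The 4 libraries that were set aside changed the picture. With all 21 libraries only ARR7 passed the joint test (adjusted p = 0.00442), beside 17.3% of all genes, and AHK2 had 0.0172, ARR4 0.0374, ARR5 0.0398 and AHK3 0.16. The VND7pro library that was set aside was read at 52.5 for AHK2, 97.2 for AHK3, 78.3 for ARR5 and 82.7 for ARR7, below both other VND7pro libraries in each case. The NST3pro library that was set aside was read at 25.4 for ARR4 and 45.6 for ARR7, again below both others. The LTP1pro library that was set aside was read at 172 for AHK3, 92.5 for ARR4 and 116 for ARR7, above both other LTP1pro libraries, and the APLpro library at 18.3 for ARR7 and 39.7 for ARR5, below both other APLpro libraries. The low values of ARR4 and AHK3 in LTP1pro nuclei thus held for 2 of its 3 libraries. These counts were scaled together with the other libraries of the 21. Apart from 2 pairs of tissues, the contrasts that passed in this fit were AHK2 (1.55 ± 0.35) and ARR7 (1.64 ± 0.36) in VND7pro nuclei against the other 6 and ARR7 on the xylem against the phloem side (1.45 ± 0.36).

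GFP-positive and GFP-negative nuclei of the same line were then compared with all 3 libraries of each kind. Each line was scaled on its own 6 libraries, so that normalized counts of the same library differ from those of the tissue comparison and are compared only within a line. GFP reads were more frequent in GFP-positive than in GFP-negative libraries of each line without overlap, at 10.97 to 27.5 against 0 to 4.51 CPM in the NST3pro line, 7.07 to 14.3 against 0.946 to 5.77 in the SMXL5pro line and 24.4 to 51.8 against 3.43 to 17.7 in the APLpro line. Nuclei were sorted on GFP, and where more than 3 samples were prepared, the study sequenced those with high GFP contrast by PCR. The separation of GFP reads was thus partly selected for. No member passed at an adjusted p of 0.05 in edgeR, nor with DESeq2 or limma, in the NST3pro line (0 of 8 tested, beside 0% of all genes), the SMXL5pro line (0 of 9, beside 0.0066%) or the APLpro line (0 of 10, beside 0.0994%). These shares are those of edgeR only. With DESeq2 the study reported more genes higher in GFP-positive nuclei in each of these lines. At an unadjusted p of 0.05 the members numbered 0, 1 and 0, beside 5.91%, 6.75% and 9.5% of all genes. Libraries of both kinds did not overlap for 1 of 8, 2 of 9 and 2 of 10 members, beside 9.53%, 13.6% and 17.7% of all genes in either direction. The median log2 fold change was -0.12 over the tested members and 0.01 over all genes in the NST3pro line, -0.27 and -0.03 in the SMXL5pro line, and 0.33 and 0.09 in the APLpro line. AHP6 fell under the filter on low counts in the NST3pro and SMXL5pro lines and ARR3 in the NST3pro line.

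The member with the unadjusted p under 0.05 was ARR7 in the SMXL5pro line. It was read at 54.4, 63.8 and 38.7 in GFP-positive and at 72.5, 71.8 and 101 in GFP-negative nuclei, so that every GFP-positive library was below every GFP-negative one. The difference was -0.65 ± 0.26 on the log2 scale (edgeR, unadjusted p = 0.0234, adjusted p = 0.66) and did not hold after adjustment. AHK4 was also without overlap in this line, at 76.4, 77.3 and 70.9 against 89.0, 79.7 and 102 (-0.27 ± 0.22, adjusted p = 0.835).

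In the NST3pro line ARR15 was read at 13.3, 12.3 and 20.3 in GFP-positive and at 7.28, 0 and 5.22 in GFP-negative nuclei, without overlap (1.70 ± 1.00, adjusted p = 0.847). The GFP-negative library without ARR15 reads was replicate 47, which had 725545 reads in all, where 3 reads correspond to 4.13 CPM. In the APLpro line ARR6 was read at 29.7, 30.2 and 32 against 12.2, 28.2 and 21.7 (0.58 ± 0.39, adjusted p = 0.611) and AHP6 at 1.92, 2.05 and 2.71 against 1.31, 1.34 and 0.448 (1.23 ± 0.87, adjusted p = 0.627). The receptor AHK3, scaled within each line, was read between 96.6 and 174 in the 18 libraries, and its fold changes were -0.05 ± 0.52, -0.17 ± 0.22 and -0.13 ± 0.39 in the 3 lines. Differences between the lines in these fold changes, tested as interactions, passed for none of the 10 members in edgeR, DESeq2 or limma, beside 0.00313%, 0.436% and 0.00627% of all genes; ARR15 had an unadjusted p of 0.0392 between the NST3pro and SMXL5pro lines (adjusted p = 0.364) and no other member was under 0.05.

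**Figure D4:**
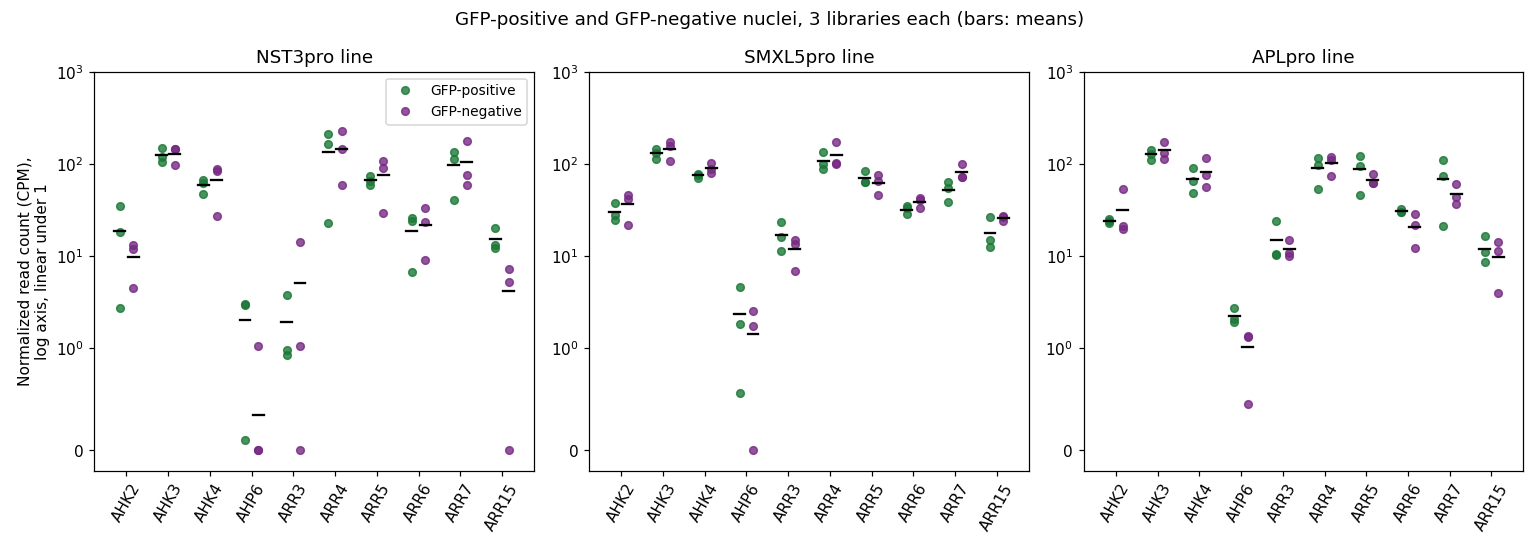
Normalized read count (CPM, logarithmic axis above 1 and linear below) of the members in GFP-positive (green) and GFP-negative (purple) nuclei of 3 lines; points are libraries, 3 of each kind, and bars are means. Green and purple points overlap for most members, and are apart for ARR15 in the NST3pro line, AHK4 and ARR7 in the SMXL5pro line, and AHP6 and ARR6 in the APLpro line.

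Of 54 other genes of cytokinin synthesis, activation, degradation, transport and signaling, 16 (29.6%) differed among the 7 tissues, beside the 26.1% of all genes. The other type-A regulators ARR8 and ARR9 passed, both highest in VND7pro (67.4 and 144) and lowest in LTP1pro nuclei (14.1 and 12.6), and ARR16 and ARR17 did not. Among 5 phosphotransfer proteins AHP3 passed, which peaked in APLpro nuclei (76.3), and among 11 type-B regulators, which are transcriptional activators, ARR1 passed with its highest mean in PXYpro (189) and ARR10 with its highest mean in SCRpro nuclei (103, against 31.7 in the next tissue). The 6 cytokinin response factors had adjusted p of 0.0311 or above.

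Genes of hormone supply included some that were highest in phloem nuclei. Of 11 synthesis genes 4 passed, among them the isopentenyltransferases IPT3 (60.1), IPT5 (55.6) and IPT7 (48), all with their highest mean in APLpro nuclei. LOG genes release active cytokinin from its nucleotide, and of 8 such genes 4 passed, with LOG8 highest in NST3pro (622, against 33.2 in LTP1pro), LOG1 in VND7pro (150) and LOG6 in PXYpro nuclei (108). The other one, LOG2, which is named after its values were seen, was highest in APLpro nuclei (64.4). Of 7 CKX oxidases, which degrade cytokinins, CKX5 passed with its highest mean in VND7pro (107) and CKX7 in PXYpro nuclei (58.4), and the transporter PUP14 was highest in PXYpro nuclei (689). The calls of IPT3 and IPT5 were lost without replicate 13 or 14 of APLpro (adjusted p up to 0.032 and 0.0206), that of AHP3 without replicate 13 (0.0333), and that of CKX7 without replicate 20 or 21 of LTP1pro or 4 of VND7pro (0.0202). With all 21 libraries, IPT3 (adjusted p = 0.0329 in the joint test), LOG2 (0.165) and the passing synthesis gene not named here (0.0144) were lost. The other genes named in this paragraph still passed, among them IPT5 (0.00272) and IPT7 (0.00199). On the xylem against the phloem side 8 of the 54 were higher, beside 17% of all genes, and 10 lower, beside 10.7%. The 5 synthesis genes that passed in this contrast were all lower. Among them was a gene that had not passed the joint test (adjusted p = 0.0432), with a highest group mean of 9.69. The median of all genes in this contrast was -0.45, and 0.04 when only genes with an average log2 CPM of at least 4 were fitted.

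Across the 17 libraries, which share their tissue groups and their scaling, the members most alike were ARR7 and ARR15 (Pearson's r = 0.793 of log2 counts, a description without a test), followed by AHK2 and AHK3 (0.737) and AHK3 and ARR4 (0.729). Among 19932 other genes, those most like a member were AT4G14270 for ARR4 (r = 0.961), DDL (AT3G20550) for AHK3 (0.949), AT5G55950 for ARR7 (0.936), AT2G16860 for ARR5 (0.931) and HVA22K (AT4G36720) for AHK2 (0.919). For AHK4, ARR6, ARR15, AHP6 and ARR3 the best match had r between 0.775 and 0.909.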

How the data were processed

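Nuclear RNA was amplified by SMART-seq2 from sorted nuclei and sequenced. The deposited tables hold raw read counts per Araport11 gene, which the authors made by trimming with Cutadapt 2.3, mapping to TAIR10 with STAR 2.5.0a and counting uniquely mapped reads over whole gene bodies, introns included, without regard to strand; a GFP row was mapped separately. The counts in the deposited tables are not normalized. The 9 libraries that occur in 2 tables had identical counts in both. Samples were grouped by their labels, and no sequencing batch is given.

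Library sizes were scaled by TMM, genes of low counts were removed by filterByExpr, and tests used edgeR 4.0.16 (quasi-likelihood, two-sided, R 4.3.3) over all genes with Benjamini-Hochberg adjustment, at adjusted p under 0.01 for tissues (pairs also beyond a log2 fold change of 1) and 0.05 for lines. The 17 tissue libraries held 1918733 to 18299284 assigned reads. A floor of 3 reads marks what a count of 0 allows and covers counting error only. The standard error of a log2 fold change was taken from the F statistic. Alternatives were DESeq2 1.42.0 size factors and test, no filter, limma 3.58.1 with sample quality weights, all 21 libraries, all 18 line libraries in 1 fit, and leaving out each library. Likeness was Pearson's r of log2(normalized count + 0.5) among genes of average log2 CPM of at least 3, and the 2 most alike genes per member were listed. All members were described, and of each other role up to 3 passing genes with the smallest p were named. The steps were tested on simulated data. The members and lists were chosen with earlier results of these data known.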

Additional observations from a re-analysis of the deposited data

How the results depend on the processing

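The 5 members that passed the joint test also passed with DESeq2 size factors, without a filter, in the DESeq2 test, with sample quality weights and in all 17 fits without 1 library (5 to 5 members). All of these fits lack the libraries that the study had set aside. With all 21 libraries 1 member passed the joint test, and 2 pairs, 2 comparisons against the other 6 tissues and 1 combined contrast passed. Without 1 library the pairs numbered 25 to 35, the comparisons against the other 6 tissues 10 to 14, the combined contrasts 7 to 9 and the other cytokinin genes 12 to 20, with the fewest pairs without replicate 4 of VND7pro. The line comparisons and their interactions stayed at 0 to 0. The DESeq2 test called 35 of the other cytokinin genes. In that test 42.7% of all genes passed, beside 26.1% in edgeR, so passing it was less selective for the members too. The causes were not tested.

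Values without a call changed sign as follows, with the range over fits without 1 library. On the xylem against the phloem side ARR5 was -0.15 among genes of average log2 CPM of at least 4, and ARR6 ranged from -0.32 to 0.092. In outer against vascular nuclei AHK2 was 0.0996 with DESeq2 size factors, 0.0998 in the DESeq2 test, 0.14 with all 21 libraries and 0.12 among the more abundant genes, and ranged from -0.17 to 0.0804, and AHP6 was 0.46 with quality weights and ranged from -0.87 to 0.62. In the NST3pro line AHK3 was 0.0126 with quality weights and 0.0406 in 1 fit of 18 libraries, and ARR7 0.58 and 0.0779. The ranges in that line were -0.23 to 0.0500 for AHK3, -0.57 to 0.0497 for AHK4, -0.62 to 0.41 for ARR4, -0.58 to 0.14 for ARR5, -0.58 to 0.199 for ARR6 and -0.44 to 0.52 for ARR7. In the SMXL5pro line ARR4 ranged from -0.40 to 0.0843. In the APLpro line the ranges were -0.63 to 0.24 for AHK2, -0.26 to 0.0725 for AHK3, -0.52 to 0.0582 for AHK4, -0.41 to 0.0856 for ARR4 and -0.0464 to 0.64 for ARR15, and -0.19 to 0.58 for ARR3.

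No paired analysis was possible because no groups share a replicate number and no label says which GFP-positive and GFP-negative libraries came from the same preparation. Groups of 2 or 3 libraries and few reads limit AHP6, ARR3 and ARR15 most.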
